A study of Mus musculus with 70 samples.

Results

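The growth hormone and prolactin axis was followed through 7 genes in mouse pituitary, chosen by name from the 22835 genes of the RNA-seq table. They were the hormone genes *Gh* and *Prl*, the receptors *Ghrhr*, *Ghsr* and *Drd2*, through which signals from outside the gland act on the hormone-producing cells, and the hormone receptors *Ghr* and *Prlr*. The transcript with the highest mean CPM (a read count scaled to the depth of its library) stood for each gene. Peaks at the 7 loci were read from lists of chromatin bound by the thyroid hormone receptor TRβ and of chromatin opened or closed by triiodothyronine (T3).

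Adult male wild type and *Thrb*-KO mice, both labelled C57BL/6J and 2 to 4 months old, were compared in 2 thyroid states. All of them drank water with methimazole (MMI, 0.05%) and potassium perchlorate (1%), which block thyroid hormone synthesis, over 4 to 5 weeks. The hypothyroid groups had this treatment alone and the hyperthyroid groups also drank T3 at 0.5 μg/ml in the final week, so no RNA-seq group was untreated. A library was made from 3 pooled pituitaries, with 4 libraries in each wild type group and 5 in each *Thrb*-KO group. TRβ-bound chromatin came from untreated pituitary and cerebral cortex of HAB;BirA mice, whose TRβ carries a tag that the ligase BirA biotinylates, against BirA mice without the tag, with 3 libraries of each per tissue. The genotype labels of the untreated BirA libraries name the HAB allele as well, against their titles, so these controls were identified by title, and the control reads and fold ratios at every locus rest on that reading. T3-regulated open chromatin came from ATAC-seq of nuclei marked by *Rosa26* Sun1-GFP under the *Thrb* b2Cre driver, which the labels call Thrb2-positive pituitary cells, with 4 hypothyroid and 4 hyperthyroid libraries. The nuclei carrying that Cre need not include every somatotroph or lactotroph. The mice used for bound and open chromatin were also adult males, 2 to 4 months old. The hypothyroid and hyperthyroid ATAC-seq mice had the same doses and times of methimazole, perchlorate and T3 as the RNA-seq mice.

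Somatotrophs secrete growth hormone when the hypothalamic peptide GHRH acts on its receptor (*Ghrhr*), and ghrelin enhances this secretion through the ghrelin receptor (*Ghsr*). Lactotrophs secrete prolactin under tonic restraint by hypothalamic dopamine acting on the D2 receptor (*Drd2*). Both hormones signal through cytokine receptors (*Ghr*, *Prlr*) that use the kinase JAK2 and STAT5 proteins. T3 acts by changing the activity of its nuclear receptors TRβ, encoded by *Thrb*, and TRα, encoded by *Thra*, which bind DNA at pairs of hexamers related to AGGTCA, often repeated directly with a spacer of 4 bases.

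RNA-seq libraries held 21453548 to 55273749 reads, summed over all 29082 transcripts. *Gh* alone took 4.83% to 15.9% of these reads. *Prl* had 2 transcripts with mean CPM of 13742 and 13728, and only the first was kept. Whether reads that match both were counted for each, which would inflate the totals, or divided between them was not tested. Libraries differed by replicate number. In each group replicates 1 and 2 had *Lars2* at 2571 to 3420 CPM, whereas replicates 3 to 5 had 53.2 to 95.1 CPM, and both sets hold every group, so values within a set are given where a T3 or genotype call reported for a member or pathway gene differs between the sets. Hyperthyroid wild type replicate 3 stood apart, with the highest share of *Gh* (15.9%) and of *Prl* (5.32%). The *Thrb*-KO label did not go with less *Thrb* RNA, which ranged from 239 to 297 CPM in hypothyroid wild type, 72.4 to 124 CPM in hyperthyroid wild type, 239 to 295 CPM in hypothyroid *Thrb*-KO and 228 to 301 CPM in hyperthyroid *Thrb*-KO. Which part of *Thrb* the knockout allele lacks is not given in the sources used here, so this level does not check the labels. *Thrb* was called lower with T3 in wild type (-1.32, limma adjusted p = 1.27e-06) and not in *Thrb*-KO (-0.0626), and *Thra* had -0.44 in wild type, under 1.5-fold.

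T3 raised *Gh*, *Prl* and *Ghsr* in wild type mice. *Prl* was also called in *Thrb*-KO, while for *Ghsr* the responses of the genotypes differed by a called interaction. *Ghrhr*, *Drd2*, *Ghr* and *Prlr* were not called for T3 in either genotype. Differences were tested with limma on log2(CPM + 1) over all genes, with p adjusted by Benjamini-Hochberg. Genes with an adjusted p below 0.05 that differed 1.5-fold or more were called. Of the 6 members with CPM above 1 in all 18 libraries, 2 were called higher with T3 in wild type (3.87% of the 13145 genes tested were called higher), and *Ghsr* was called higher in the wider set of genes with CPM above 1 in at least 4 libraries (4.28% of 14472). In *Thrb*-KO 1 of the 6 was called higher (0.411% of genes), and *Ghsr* was not (0.567% in the wider set). The interaction was called for none of the 6 (4.26% of genes called in either direction) and for *Ghsr* (5.13% in the wider set). With scaling to reads outside *Gh* and *Prl*, the split of all genes called for T3 in wild type turned from 509 higher and 735 lower to 785 higher and 508 lower, the 3 members called were unchanged, and the median over all genes moved from -0.0397 to 0.0977 (log2).

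*Gh* encodes growth hormone, the main product of somatotrophs. The 4 hypothyroid wild type libraries had 48332, 51022, 66226 and 57732 CPM (replicates 1 to 4), and the 4 hyperthyroid wild type libraries 104306, 87356, 159094 and 112135 CPM. The hypothyroid *Thrb*-KO libraries had 57865, 57762, 73698, 70320 and 72480 CPM (replicates 1 to 5), and the hyperthyroid ones 94943, 89351, 82874, 88335 and 114941 CPM. Every hyperthyroid library lay above every hypothyroid library, across both genotypes. Without overlap between the groups were 2 of the 6 members for T3 in wild type (17.4% of genes) and 2 for T3 in *Thrb*-KO (5.58% of genes), *Gh* and *Prl* in both. The group means were 55828 ± 7980 (SD, n = 4) and 115723 ± 30708 CPM (n = 4) in wild type, and 66425 ± 7954 and 94089 ± 12418 CPM (n = 5 each) in *Thrb*-KO.

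In wild type the T3 response of *Gh* was 1.03 on the log2(CPM + 1) scale (SE 0.214, limma adjusted p = 0.0017), a 2.07-fold ratio of mean CPM. In *Thrb*-KO it was 0.50 (SE 0.191, adjusted p = 0.337), with a 95% interval from 0.10 to 0.90. This response was called in replicates 1 and 2 alone (0.67) and not in replicates 3 to 5 (0.39). The difference between the 2 responses was -0.53 with an interval from -1.13 to 0.0766 (adjusted p = 0.447). Without hyperthyroid wild type replicate 3 the wild type response was 0.86 and the difference -0.36. The genotypes were not called apart in either state, at 0.25 (SE 0.203) for *Thrb*-KO minus wild type in the hypothyroid groups and -0.27 (SE 0.203) in the hyperthyroid groups.

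**Figure D1:**
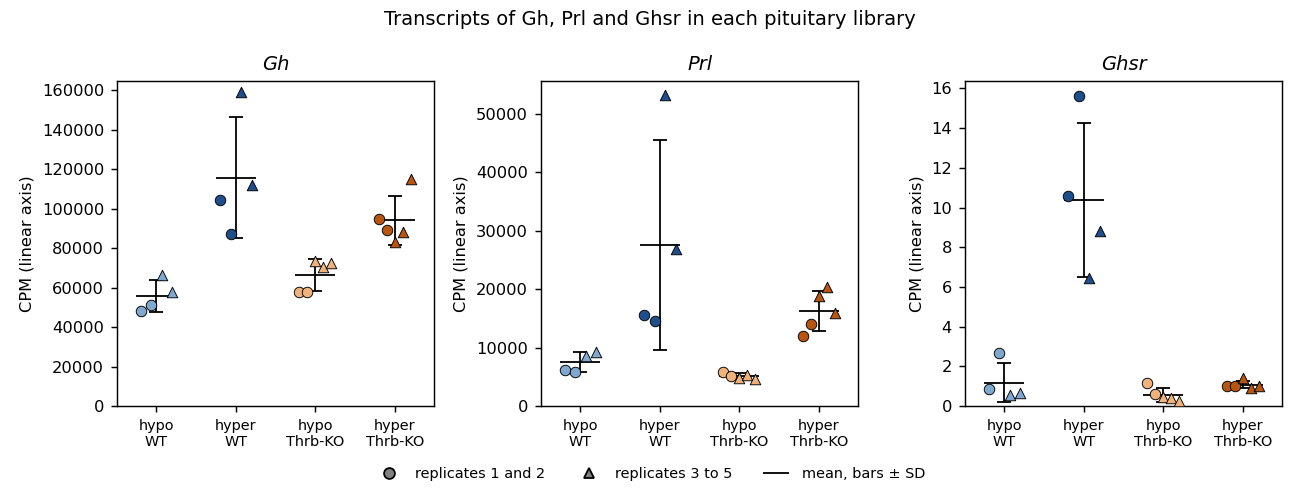
CPM of *Gh*, *Prl* and *Ghsr* in each of the 18 pituitary libraries (linear axes from 0), by treatment and genotype; circles are replicates 1 and 2, triangles replicates 3 to 5, and bars show the mean ± SD of 4 or 5 libraries. Hyperthyroid libraries lie above hypothyroid ones of the same genotype for *Gh* and *Prl*, whereas *Ghsr* stands above 6 CPM only in the 4 hyperthyroid wild type libraries.

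*Gh*, at 106161585 to 106163179 of chromosome 11 in mm9 and read from the minus strand, had 3 pituitary TRβ-HAB peaks within 20 kb. The first, from 106163051 to 106163450, covers the start of transcription and the beginning of the coding sequence, with 46 HAB;BirA reads against 6 control reads (6.40-fold after the authors' scaling, false discovery rate 5.43e-22). The second, 5822 bases upstream at 106169001 to 106169200, had 22 reads against 1. The third, 14722 bases upstream at 106177901 to 106178650, had 75 reads against 1 (62.6-fold, false discovery rate 2.80e-104) and ranked 213th of the 8051 pituitary peaks by reads. It lies outside genes, 1825 bases from *Cd79b*, a B-cell receptor gene, and 1256 bases from *Scn4a*, a muscle sodium channel gene.

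The sequences of the start peak and of the strongest peak are shown because one covers the start of a gene that T3 raised and the other had the most reads of the peaks at *Gh* and the best repeat of all 9 pituitary peaks at the members. Both are read 5′ to 3′ on the minus strand, the strand of *Gh*. The first is the part of the start peak upstream of the gene, chr11:106163180-106163450, with its only complete AGGTCA hexamer in capitals, 124 bases from the start. The second is the part of the strongest peak at chr11:106177901-106178150, with its direct repeat in capitals.

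*Gh* start: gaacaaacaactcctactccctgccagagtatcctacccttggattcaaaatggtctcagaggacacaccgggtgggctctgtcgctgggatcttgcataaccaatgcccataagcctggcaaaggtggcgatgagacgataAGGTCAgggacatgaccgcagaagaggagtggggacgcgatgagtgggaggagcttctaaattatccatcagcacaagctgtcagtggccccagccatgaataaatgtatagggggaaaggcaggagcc

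*Gh* distal: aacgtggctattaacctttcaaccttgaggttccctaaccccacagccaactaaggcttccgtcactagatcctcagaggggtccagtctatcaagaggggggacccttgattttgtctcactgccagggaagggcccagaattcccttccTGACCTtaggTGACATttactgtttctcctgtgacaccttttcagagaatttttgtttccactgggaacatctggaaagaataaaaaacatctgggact

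The repeat in the strongest peak reads ATGTCAcctaAGGTCA on the plus strand, from 106177984 to 106177999, and matches 11 of the 12 bases of a pair of AGGTCA hexamers 4 bases apart. Its 1 mismatch is G2T, counted from the 5′ end of the repeat. In the start peak the best such repeat matched 8 of 12 bases, and in the middle peak 9 of 12. An ATAC peak of 1393 bases, from 106160347 to 106161739, reaches from beyond the end of *Gh* into its coding sequence. It was listed as T3-regulated (adjusted p = 0.000800). It overlapped no TRβ-HAB peak of either tissue, and the list does not give the direction of its change.

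*Prl* encodes prolactin, the product of lactotrophs. Its levels in hypothyroid wild type were 6178, 5863, 8631 and 9334 CPM, and in hyperthyroid wild type 15603, 14523, 53184 and 26905 CPM. Hypothyroid *Thrb*-KO libraries had 5917, 5161, 4792, 5239 and 4718 CPM, and hyperthyroid ones 12031, 14091, 18856, 20407 and 15913 CPM. All hyperthyroid libraries were above all hypothyroid ones, and 1 of them, wild type replicate 3, was nearly 2 times as high as the next. The means were 7502 ± 1739 and 27554 ± 17981 CPM (SD, n = 4 each) in wild type and 5165 ± 477 and 16260 ± 3415 CPM (n = 5 each) in *Thrb*-KO.

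The T3 response of *Prl* was 1.70 in wild type (SE 0.307, limma adjusted p = 0.000491) and 1.63 in *Thrb*-KO (SE 0.275, adjusted p = 0.00173), which are 3.67-fold and 3.15-fold ratios of mean CPM. Both were called within each library set, at 1.32 and 1.24 in replicates 1 and 2 and at 2.08 and 1.90 in replicates 3 to 5. The difference between the responses was -0.0661, with an interval from -0.93 to 0.80. Without hyperthyroid wild type replicate 3 the wild type response was 1.31, still called, and the difference turned to 0.32, not called. Between genotypes the values were -0.51 (SE 0.292) in the hypothyroid groups and -0.58 (SE 0.292) in the hyperthyroid groups. These were not called over all libraries, but were called in replicates 3 to 5 alone, at -0.87 and -1.05, against -0.12 and -0.21 in replicates 1 and 2.

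The *Prl* gene spans 27149439 to 27157073 on the plus strand of chromosome 13. It had 1 pituitary TRβ-HAB peak, 889 bases upstream of the gene at 27148351 to 27148550, with 15 reads against 1 (12.5-fold, false discovery rate 9.90e-13). The nearest cortex peak was 1807278 bases away and the nearest T3-regulated ATAC peak 718484 bases away. The peak is shown whole on the plus strand, since it is the only bound site near this gene, and the capitals mark its best repeat, a complete hexamer followed by one that matches 3 of 6 bases (T14C, C15A and A16G).

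*Prl* upstream: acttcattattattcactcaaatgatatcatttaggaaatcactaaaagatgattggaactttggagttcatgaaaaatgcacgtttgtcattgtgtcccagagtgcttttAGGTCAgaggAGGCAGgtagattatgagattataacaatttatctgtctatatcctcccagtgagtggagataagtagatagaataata

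Reads of *Prl* could have been shared with the placental relatives of the gene, but none of the 26 numbered *Prl* family genes in the table exceeded 0.0725 CPM in any library.

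*Ghsr*, the ghrelin receptor, was low in 3 of the 4 groups and had a T3 response that differed between genotypes. Hypothyroid wild type libraries had 0.856, 2.65, 0.551 and 0.653 CPM, and hyperthyroid wild type libraries 10.6, 15.6, 6.45 and 8.82 CPM, the latter from 159 to 569 reads each. Hypothyroid *Thrb*-KO libraries had 1.16, 0.589, 0.434, 0.427 and 0.256 CPM from 8 to 34 reads, and hyperthyroid *Thrb*-KO libraries 1.03, 1.03, 1.43, 0.914 and 1.03 CPM from 22 to 60 reads. The hyperthyroid wild type libraries thus stood above the 14 others without overlap. The lowest library, with 8 reads, was above the level of 3 reads, which was 0.0543 to 0.14 CPM over the 18 libraries.

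The T3 response of *Ghsr* in wild type was 2.42 on the log2(CPM + 1) scale (SE 0.25, limma adjusted p = 7.9e-07), an 8.80-fold ratio of mean CPM, since the added 1 shrinks the change of a low gene. In *Thrb*-KO it was 0.43 (SE 0.224, adjusted p = 0.672), with an interval from -0.0423 to 0.90, and it was called in replicates 3 to 5 alone (0.62). The ratio of mean CPM in *Thrb*-KO was 1.89, which the added 1 also shrinks. The interaction was -1.99 (interval -2.69 to -1.28, adjusted p = 0.000795), and its value was -2.28 in replicates 1 and 2 and -1.79 in replicates 3 to 5. With edgeR on recovered reads the interaction was -2.22 (edgeR adjusted p = 0.0296). In the hyperthyroid state *Ghsr* was lower in *Thrb*-KO than in wild type by -2.39 (SE 0.237, adjusted p = 9.89e-07), a ratio of mean CPM of 0.105 (5.65% of the wider set of genes called in either direction). In the hypothyroid state the difference was -0.40 (SE 0.237, adjusted p = 0.403).

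*Ghsr* lies on chromosome 3 from 27270273 to 27276932, and no peak of the 3 lists lay within 20 kb of it. The nearest T3-regulated ATAC peak was 43457 bases away inside *Tnfsf10*, and the nearest pituitary TRβ-HAB peak 55019 bases away inside *Fndc3b*. That TRβ-HAB peak, at 27331951 to 27332300, overlaps a T3-regulated ATAC peak at 27331992 to 27332436.

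*Ghrhr*, the GHRH receptor that marks somatotrophs, varied little. Its levels were 107 to 112 CPM in hypothyroid wild type (median 110), 109 to 144 CPM in hyperthyroid wild type (median 127), 111 to 161 CPM in hypothyroid *Thrb*-KO (median 131) and 132 to 154 CPM in hyperthyroid *Thrb*-KO (median 150). The groups overlapped in all 4 comparisons. The T3 response was 0.20 in wild type (SE 0.105, limma adjusted p = 0.231) and 0.13 in *Thrb*-KO (SE 0.0939). Scaled to reads outside *Gh* and *Prl*, the wild type response was 0.34 (adjusted p = 0.0189), still under 1.5-fold.

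The *Ghrhr* locus on chromosome 6 (55326289 to 55338524, plus strand) had a pituitary TRβ-HAB peak over its start, at 55326101 to 55326750, with 40 reads against 4 (8.34-fold, false discovery rate 2.13e-23). Another peak, at 55306151 to 55306350, lay 19939 bases upstream, just inside the 20 kb limit and 7602 bases from *Aqp1*, a water channel gene, with 14 reads against 0. The best repeat in each matched 9 of 12 bases. A bound start site thus stood at a gene whose T3 response was not called.

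*Drd2*, the dopamine receptor that restrains lactotrophs, differed between the library sets. Levels were 94.0, 88.8, 100 and 102 CPM in hypothyroid wild type and 146, 143, 86.5 and 128 CPM in hyperthyroid wild type. Hyperthyroid wild type replicate 3 was below every hypothyroid library, while the other 3 hyperthyroid libraries were above them all. In *Thrb*-KO the levels were 95.3 to 105 CPM without T3 and 103 to 133 CPM with it. The response in wild type was 0.36 (SE 0.127, limma adjusted p = 0.0575), at 0.66 in replicates 1 and 2, where it was called, and 0.057 in replicates 3 to 5. Without replicate 3 of hyperthyroid wild type it was 0.53 (adjusted p = 0.00013), which is under 1.5-fold. In *Thrb*-KO the response was 0.21 (SE 0.113, adjusted p = 0.763), and the interaction was -0.15 (SE 0.17). *Drd2*, on chromosome 9 from 49148732 to 49216282, had 1 pituitary TRβ-HAB peak, 569 bases beyond its end at 49216851 to 49217000, with 16 reads against 2 (6.68-fold, false discovery rate 2.01e-09), the weakest of the 9 by that rate.

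*Ghr*, the growth hormone receptor, had higher levels in *Thrb*-KO than in wild type in both states, by less than the 1.5-fold needed for a call. Hypothyroid wild type libraries had 13.1, 13.5, 10.1 and 12.2 CPM against 17.9, 17.5, 19.2, 19.0 and 19.1 CPM in hypothyroid *Thrb*-KO. Hyperthyroid wild type libraries had 15.5, 17.2, 10.2 and 15.8 CPM against 18.3, 20.3, 18.6, 20.8 and 17.4 CPM in hyperthyroid *Thrb*-KO. Every *Thrb*-KO library was above every wild type library. No member was called for *Thrb*-KO against wild type in the hypothyroid state (3.02% of genes in either direction), and none of the 6 in the hyperthyroid state (4.86%). *Ghr* was the 1 member of the 6 whose groups did not overlap, in the hypothyroid state (14.3% of genes) and in the hyperthyroid state (11.3%).

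The difference of *Ghr* between genotypes was 0.57 in the hypothyroid groups (SE 0.119, limma adjusted p = 0.00536), a 1.52-fold ratio of mean CPM, and 0.38 in the hyperthyroid groups (SE 0.119, adjusted p = 0.0431), a 1.30-fold ratio. The first was 0.39 in replicates 1 and 2, not called, and 0.73 in replicates 3 to 5, called (adjusted p = 0.0185). It also passed the fold threshold with a smaller pseudocount, at 0.59, and the second had an adjusted p of 0.11 without hyperthyroid wild type replicate 3. Markers of immune cells moved between the hypothyroid groups. Their summed level was 90.5 to 107 CPM in hypothyroid wild type and 51.1 to 62.0 CPM in hypothyroid *Thrb*-KO, with 3 of 4 called lower. In the hyperthyroid groups 1 of 4 was called lower, and the sums overlapped (64.2 to 118 and 53.6 to 69.9 CPM). In hypothyroid *Thrb*-KO 1 of 3 thyrotroph markers (*Dio2*), 1 of 3 melanotroph markers (*Pcsk2*) and 1 of 4 fibroblast markers (*Col1a2*) were also called lower. The rest of those lists were not called. In hyperthyroid *Thrb*-KO 1 of 3 thyrotroph markers (*Dio2*) and 1 of 4 gonadotroph markers were called higher, and 1 of 3 tested stem and folliculostellate markers lower. The part of any of these cell types in the result was not tested. T3 responses of *Ghr* were 0.23 in wild type (SE 0.125, adjusted p = 0.254) and 0.0377 in *Thrb*-KO (SE 0.112).

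*Prlr*, the prolactin receptor, was called in no comparison. Levels were 152, 178, 112 and 125 CPM in hypothyroid wild type and 158, 169, 82.2 and 99.8 CPM in hyperthyroid wild type, and in both groups replicates 1 and 2 were above replicates 3 and 4. In *Thrb*-KO they were 122 to 140 CPM in the hypothyroid and 101 to 156 CPM in the hyperthyroid libraries. The T3 response was -0.20 in wild type (SE 0.198, limma adjusted p = 0.609) with an interval from -0.61 to 0.22, and -0.0869 in *Thrb*-KO (SE 0.177).

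The 2 hormone receptor genes are both long genes on chromosome 15, and their loci differed. *Prlr* (10106993 to 10303504, plus strand) had 2 pituitary TRβ-HAB peaks inside the gene. The first, at 10143451 to 10143950 over a noncoding part of an exon, had 82 reads against 2 (34.2-fold, false discovery rate 1.10e-92) and ranked 170th of 8051 by reads. The second, at 10168251 to 10168600 in an intron, had 39 reads against 4 (8.14-fold). *Ghr* (3267760 to 3533492, minus strand) had no TRβ-HAB peak of either tissue within 20 kb, and its nearest pituitary peak was 395609 bases away. It held a T3-regulated ATAC peak in an intron, at 3281883 to 3282270 (adjusted p = 0.0071).

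**Figure D2:**
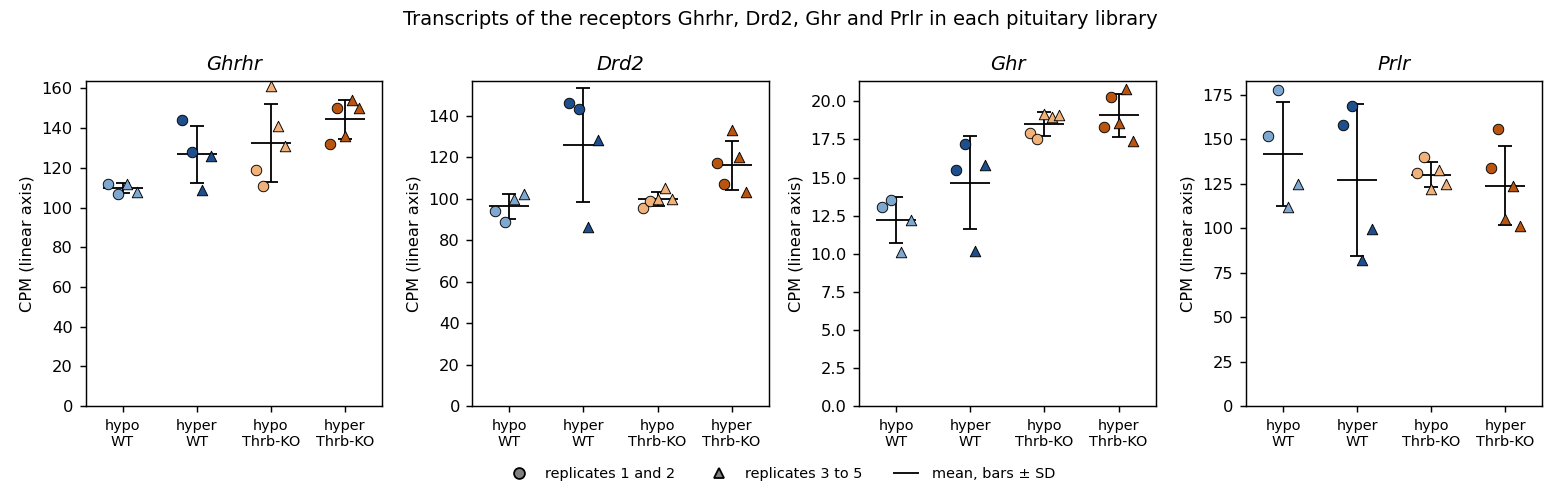
CPM of *Ghrhr*, *Drd2*, *Ghr* and *Prlr* in each of the 18 pituitary libraries (linear axes from 0), by treatment and genotype; circles are replicates 1 and 2, triangles replicates 3 to 5, and bars show the mean ± SD. The *Ghr* points of *Thrb*-KO lie above all wild type points, and hyperthyroid wild type replicate 3 is the lowest of its group in each panel.

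**Figure D3:**
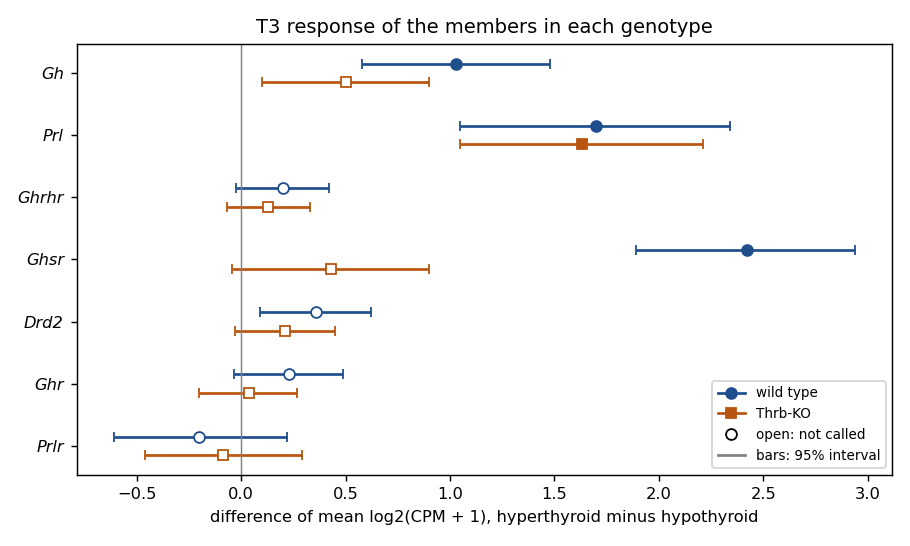
Difference of mean log2(CPM + 1) between hyperthyroid and hypothyroid libraries for the 7 members in wild type (circles) and *Thrb*-KO (squares), with 95% intervals from limma; open symbols were not called. *Prl* is called in both genotypes, *Gh* and *Ghsr* in wild type only, and the 2 intervals of *Ghsr* do not overlap.

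Across the 7 loci, 5 genes had a pituitary TRβ-HAB peak within 20 kb of the gene body, 9 peaks in all, where 41.2% of 12772 placed genes had one. None of the 7 had a cortex peak (34.9% of genes), and 2 had a T3-regulated ATAC peak (7.71% of genes). Within 20 kb, *Gh* and *Prl* had bound pituitary sites and rose with T3 in wild type, and *Ghrhr*, *Drd2* and *Prlr* had them and were not called. *Ghsr* had none and rose, and *Ghr* had none and was not called. Within 100 kb *Ghsr* had 2 pituitary, 1 cortex and 4 T3-regulated ATAC peaks, and *Ghr* had 0, 1 and 1. A link between bound sites and responses was not tested. These lists do not give TRβ binding in the hypothyroid or hyperthyroid state. Of the 9 pituitary peaks 1, the strongest at *Gh*, held a direct repeat with a 4 base spacer and at most 2 mismatches (20.9% of all pituitary peaks), and neither of the 2 ATAC peaks did (30.9% of all T3-regulated ATAC peaks). A complete AGGTCA hexamer on either strand was in 3 of the 9 pituitary peaks, 2 at *Gh* and 1 at *Prl* (34.7% of all), and in both ATAC peaks (41.9% of all). The peaks counted here ranged from 150 to 1393 bases, and a longer peak has more room for a match.

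**Figure D4:**
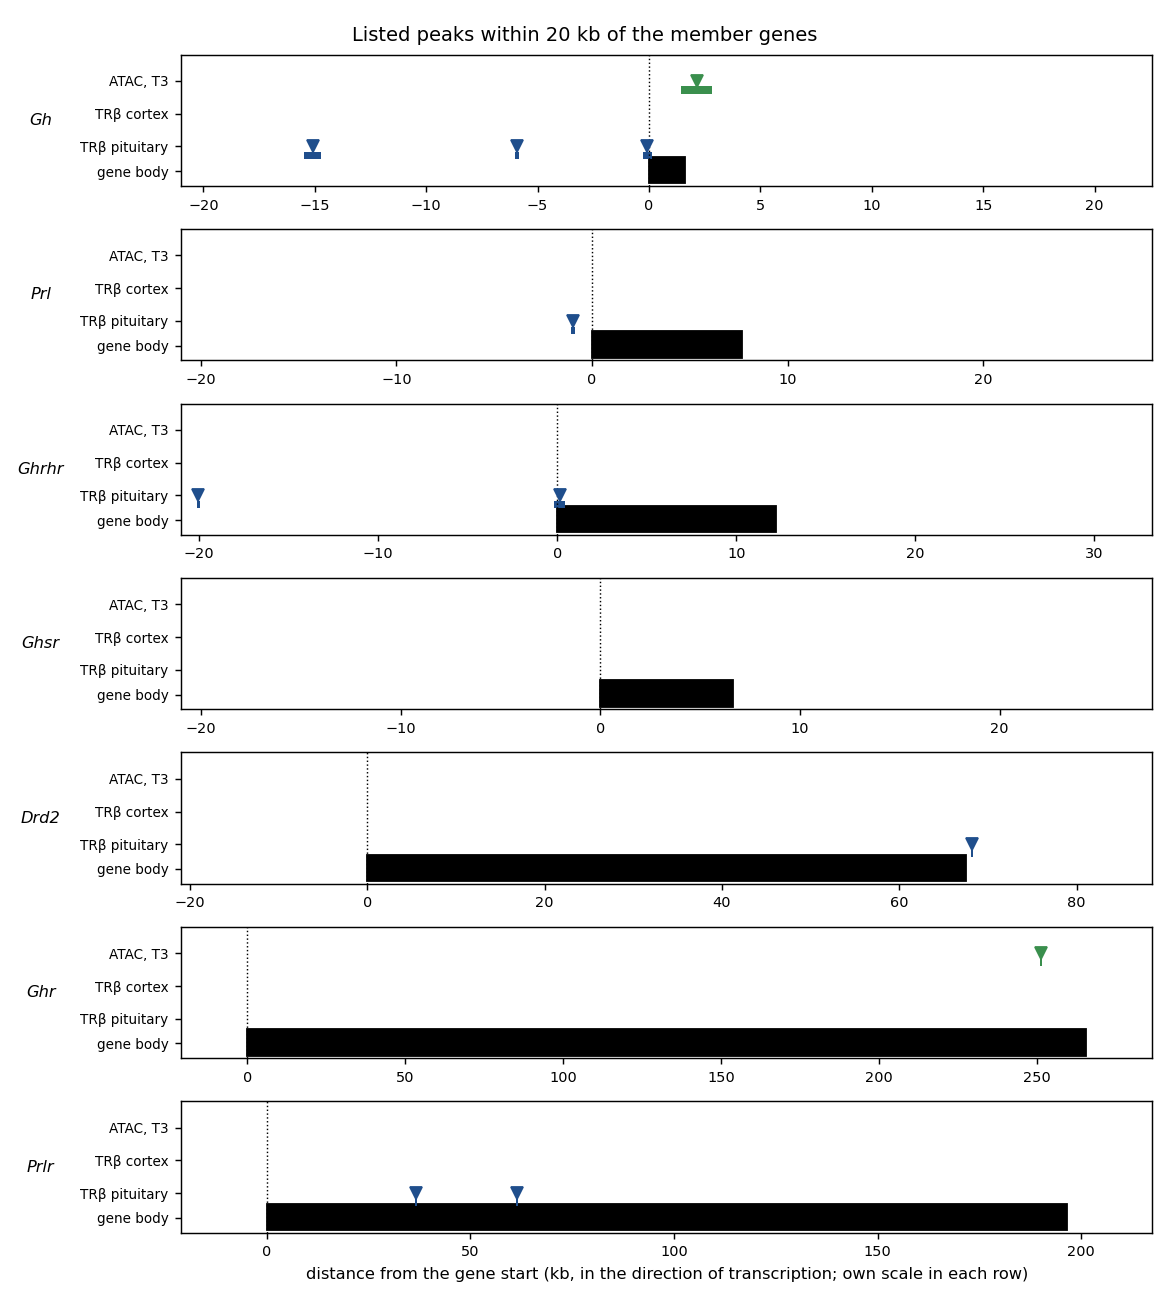
Position of the listed peaks within 20 kb of each member, in kb from the gene start in the direction of transcription (each row has its own scale); black bars are gene bodies, and triangles with bars mark pituitary TRβ-HAB, cortex TRβ-HAB and T3-regulated ATAC peaks. *Gh* has 3 pituitary peaks and 1 ATAC peak, *Ghsr* has none, and no gene has a cortex peak.

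The wider pathway was read from 5 gene lists, and T3 in wild type moved a few genes of each in both directions. The genes named from each were picked among those called for T3 by the size of their wild type change. That choice favours a larger response in wild type than in *Thrb*-KO. Genes with CPM above 1 in at least 4 libraries but not in all 18 were read from the wider fit, as for *Ghsr*. A gene can pass that wider filter only through the groups where it is high, which favours a difference between groups. For comparison, 5.59% of genes were called lower with T3 in wild type (6.14% in the wider set), and 0.601% in *Thrb*-KO (0.767% in the wider set).

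Of 14 ligands, 5 were measured above the filters, with 1 called higher and 1 lower in wild type. *Igf1*, the growth factor that mediates many growth hormone actions and feeds back on somatotrophs, rose from 7.40 ± 2.37 to 19.0 ± 5.15 CPM (SD, n = 4 each) in wild type, a response of 1.26 (limma adjusted p = 0.000153). In *Thrb*-KO its response was -0.11 (from 8.46 ± 1.50 to 7.76 ± 1.38 CPM, n = 5 each, adjusted p = 1), and the interaction was called (-1.37, adjusted p = 0.00433). *Th*, the rate-limiting enzyme of dopamine synthesis, fell by 3.60 in wild type, from 16.1 to 28.6 CPM in the hypothyroid libraries to 0.654 to 1.24 CPM in the hyperthyroid ones. It was at 1.51 to 2.00 CPM in hypothyroid *Thrb*-KO, and its fall there of 0.61 (adjusted p = 0.0287) was not called in 8 of the 18 fits that left out 1 library. *Th* passed the wider filter through the hypothyroid libraries, so its fall is partly set by the filter.

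Of 21 other receptors, 18 were measured, with 3 called higher and 3 lower in wild type and 1 higher and 2 lower in *Thrb*-KO. *Trhr*, the receptor for thyrotropin-releasing hormone, which stimulates both thyrotropin and prolactin release, fell from 64.1 ± 0.997 to 2.88 ± 0.508 CPM (n = 4 each) in wild type, a change of -4.08 (limma adjusted p = 1.78e-13). In *Thrb*-KO the change was -2.04 (adjusted p = 6.35e-09), from 24.8 ± 4.21 to 5.24 ± 0.673 CPM (n = 5 each). *Drd4*, a dopamine receptor of the D2 class, rose by 1.73 in wild type and by 1.22 in *Thrb*-KO, from levels under 1.1 CPM to 2.24 to 6.02 CPM. It passed the wider filter through these hyperthyroid libraries, so its rise is partly set by the filter. *Sstr2*, a receptor for somatostatin, the peptide that restrains growth hormone release, rose by 1.15 in wild type (adjusted p = 0.00177), a call that was missed in replicates 3 to 5 alone (0.87). Its response in *Thrb*-KO was 0.51 (adjusted p = 0.428).

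G protein and cAMP genes, which carry the signals of *Ghrhr* and *Drd2*, had 30 of 31 measured, with 2 called higher and 3 lower in wild type (median change -0.18, against -0.0397 for all genes) and 1 higher in *Thrb*-KO. *Adcy7*, an adenylyl cyclase, rose in both genotypes, by 1.90 in wild type (limma adjusted p = 2.55e-06) and 1.77 in *Thrb*-KO (adjusted p = 1.18e-05). *Gnaz*, an inhibitory G protein subunit, rose by 0.73 in wild type, and *Gnaq*, which couples receptors to phospholipase C, fell by 0.74, a change that was under 1.5-fold in replicates 1 and 2 (-0.51).

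Signalling genes downstream of GHR and PRLR had 24 of 25 measured, with 2 called higher and 3 lower in wild type and 1 higher in *Thrb*-KO. *Jak2*, the kinase bound to both receptors, had 44.5 to 48.2 CPM in hypothyroid wild type, 68.5 to 111 CPM in hyperthyroid wild type and 43.4 to 49.7 CPM in the 10 *Thrb*-KO libraries. Its response was 1.02 in wild type (limma adjusted p = 2.15e-06) and -0.0585 in *Thrb*-KO, and the interaction was called (-1.08, adjusted p = 0.000196). *Cish*, a STAT5-induced inhibitor of cytokine receptor signalling, rose in both genotypes, by 0.85 and 0.72, though in *Thrb*-KO it was under 1.5-fold in replicates 1 and 2 alone (0.52). *Igfbp3*, an IGF-binding protein, fell by 0.99 in wild type and had a change of -0.54 in *Thrb*-KO that was not called (limma adjusted p = 0.148), but was called in replicates 1 and 2 alone (-0.60, adjusted p = 0.000285).

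Of 16 transcription factors of these cells, 15 were measured, with 2 called higher and 2 lower in wild type and none in *Thrb*-KO. *Neurod4*, a factor of somatotroph development, rose from 27.8 ± 7.57 to 79.0 ± 17.6 CPM (n = 4 each) in wild type, a response of 1.48 (limma adjusted p = 3.31e-06), against 0.37 in *Thrb*-KO, and the interaction was called (-1.12, adjusted p = 0.00532). *Isl1*, a LIM homeodomain factor of several pituitary lineages, fell by 0.75 in wild type. *Gata2*, a factor of thyrotrophs and gonadotrophs, fell by 0.64, and was under 1.5-fold in replicates 3 to 5 alone (-0.58), with TMM scaling (-0.58) and outside *Gh* and *Prl* (-0.50).

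**Figure D5:**
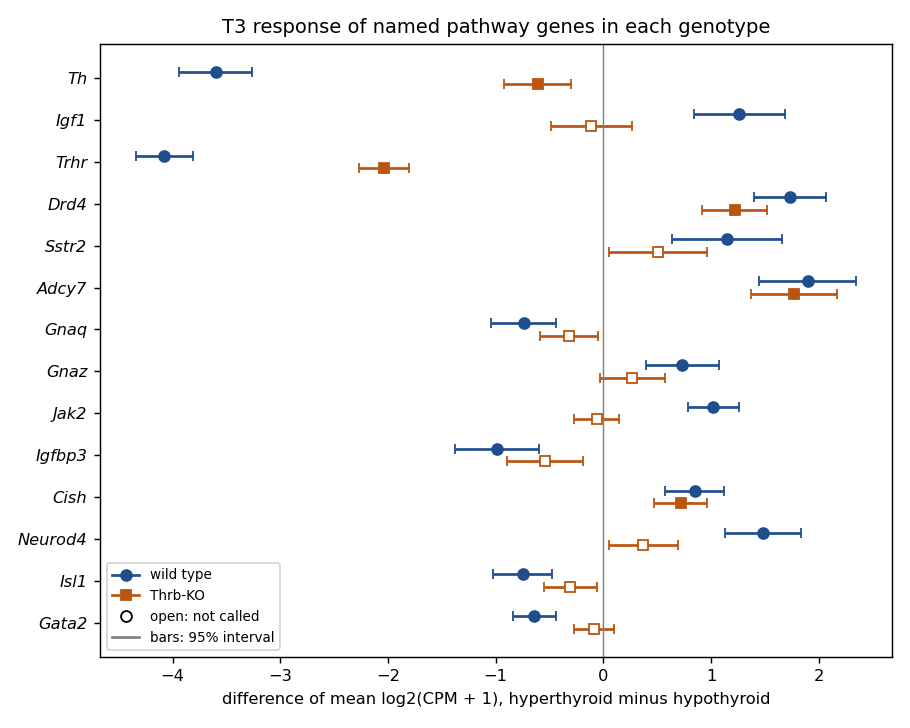
Difference of mean log2(CPM + 1) between hyperthyroid and hypothyroid libraries for the 14 named pathway genes in wild type (circles) and *Thrb*-KO (squares), with 95% intervals from limma; open symbols were not called. *Igf1*, *Jak2* and *Neurod4* rose in wild type and were not called in *Thrb*-KO, whereas *Drd4*, *Adcy7* and *Cish* rose in both.

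Genes with patterns most like the 3 called members were sought by the root mean square difference of centred log2(CPM + 1) over the 18 libraries. Nearest to *Gh* were *H2afy* (0.205), *BC029722* (0.207) and *Nmi* (0.209), where the median over 13144 genes was 0.51. Nearest to *Prl* were *Flywch2* (0.46), *Fut2* (0.525) and *Neat1* (0.553), against a median of 1.01. Nearest to *Ghsr* were *Shc2* (0.299), *Kmo* (0.31) and *Col4a4* (0.327) among 14471 genes, with a median of 1.17. The T3 responses of these 9 genes in wild type were 0.81 to 2.71, and the 3 nearest *Ghsr* had 0.03 to 0.66 in *Thrb*-KO. The choice by likeness over all 18 libraries fixes both.

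In whole pituitary, fewer cells of a type and less RNA per cell cannot be told apart. The thyrotroph markers *Tshb*, *Cga* and *Dio2* were all called lower with T3 in both genotypes, and their summed level went from 9849 to 18647 CPM in hypothyroid to 1232 to 2111 CPM in hyperthyroid wild type, and from 9339 to 11850 CPM to 1626 to 1733 CPM in *Thrb*-KO. *Trhr* fell with them in both genotypes and *Gata2* in wild type, where its response in *Thrb*-KO was -0.0845 and not called, and the part of thyrotrophs in those changes was not tested. Of the 4 gonadotroph, 3 corticotroph, 3 melanotroph, 4 endothelial, 4 pituicyte, 4 immune and 3 red cell markers none was called for T3 in either genotype. The same held for the 3 tested stem and folliculostellate markers, while 1 of 4 fibroblast markers was lower and 1 of 3 tested brain markers, *Slc17a7*, higher in wild type.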

How the data were processed

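The members, gene lists and tests were chosen with earlier results of these data known. RNA-seq, ChAP-seq and ATAC-seq of mouse pituitary were used, and the cerebral cortex peak list. The ChAP-seq of treated mice and the ChIP-seq were not analysed here.

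RNA-seq reads (50 bases, single-end) were mapped by the authors to mm9 RefSeq transcripts with BBMap, and CPM per transcript was deposited. Of the CPM values 100% were whole reads within 0.05 of a read, from which totals were recovered. For ChAP-seq the authors merged libraries and called peaks with SICER 1.1, and the deposited lists give the read count of HAB;BirA and control libraries, their scaled fold ratio and a false discovery rate (a corrected p-value), without library totals. The false discovery rate covers counting error only, and without molecular identifiers duplicate reads of a fragment can add to the counts. For ATAC-seq the authors deposited an adjusted p-value per peak, from edgeR. The TRβ-HAB lists rest on merged libraries, so they have no replicate error. The ATAC list gives no values of single libraries, so the spread between them cannot be read here.

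The transcript with the highest mean CPM was kept per gene. limma 3.58.1 (R 4.3.3, eBayes with trend) was fitted to log2(CPM + 1) in 1 model of the 4 groups for genes with CPM above 1 in all 18 libraries, and a second fit took CPM above 1 in at least 4. Intervals are 95% intervals of that fit. edgeR 4.0.16 and DESeq2 1.42.0 on recovered reads were alternatives. On simulated data with T3 in wild type over 13145 genes, limma recovered 97 of 100 genes changed 2-fold and 86 of 100 changed 1.75-fold, with 0 false calls. The simulation gave every gene the same setting of spread between libraries and had no library sets. It therefore does not measure recovery or false calls in the real libraries. Named genes are the 7 members, at most 3 genes per pathway list called for T3 (largest change in wild type), the 3 nearest patterns of each called member, *Thrb* and *Thra*. Libraries with the same number deviated together (25 pairs, r 0.13 to 0.82), as did other pairs of the same library set (36 pairs, r 0.27 to 0.76), so the number was tried as a block. The labels do not say what a number marks. P-values measure the spread between pools. Peaks were placed with GENCODE annotation of mm9 at 20 kb from the gene body, and motifs were sought on both strands of mm9.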

Additional observations from a re-analysis of the deposited data

Results flagged for a closer look

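*Ghsr* in hypothyroid wild type replicate 2 (2.65 CPM) stood apart from the other 3 libraries of its group, at 0.551 to 0.856 CPM. In hyperthyroid *Thrb*-KO, replicate 3 (1.43 CPM) stood apart from the other 4, at 0.914 to 1.03 CPM. Of the 28 groups of member values examined 2 were marked in this way by Dixon's criterion, and chance marks about 1 in 20.

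T3 responses differed between *Thrb*-KO and wild type by the interaction term for *Ghsr* (-1.99, limma adjusted p = 0.000795), *Igf1* (-1.37, adjusted p = 0.00433), *Jak2* (-1.08, adjusted p = 0.000196) and *Neurod4* (-1.12, adjusted p = 0.00532), where the rise in wild type was larger. The term was positive for *Th* (2.99, adjusted p = 5.19e-08) and *Trhr* (2.04, adjusted p = 4.99e-07), where the fall in wild type was larger. Both were called lower in hypothyroid *Thrb*-KO than in hypothyroid wild type (-3.0 and -1.35, limma adjusted p = 3.26e-10 and 8.07e-07). Their falls in *Thrb*-KO thus began from lower levels. Over all genes the interaction was called for 4.26%, and for 5.13% in the wider set. Apart from *Ghsr*, the genes here were picked among those called for T3 by the size of their wild type change. That choice favours a larger change in wild type than in *Thrb*-KO.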

How the results depend on the processing

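Counts of members called, of peaks and of repeats stayed within 1.5 times in 156 of 175 recomputations, and values of single genes kept direction and call in 2206 of 2271. Of these, 87 and 1182 came from fits that left out 1 library, a small change of setting. Such fits gave 3 of the 19 counts that moved. Without a filter on low values 1 member was called for T3 in wild type and 0 in *Thrb*-KO, in a fit where *Gh* had a standard error of 22.2. For T3 in *Thrb*-KO each library set alone gave 2. For *Thrb*-KO against wild type in the hypothyroid state, 1 member (*Ghr*) was called with pseudocount 0.5 or 0.1, without the fold threshold, with transcripts summed or scaled to reads outside *Gh* and *Prl* (chosen after seeing the data, as was the search for single hexamers), 2 in replicates 3 to 5, and 0 to 1 leaving out a library. In the hyperthyroid state DESeq2, no fold threshold and replicates 3 to 5 each gave 2. The replicate block changed no call the report gives (*Gh* in wild type 1.03, adjusted p = 0.000648), but of the other values of named genes it brought *Gnaz* between the hypothyroid genotypes from 0.53, not called, to 0.60, called (adjusted p = 0.00117). Listed peaks at the loci numbered 6 over gene bodies and 27 within 100 kb, against 11 within 20 kb, and 8 peaks held a repeat with at most 3 mismatches. The cause of these changes was not tested.

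Signs of uncalled values turned in replicates 3 to 5 alone for *Drd2* (0.16 in the interaction and 0.16 between hyperthyroid groups), *Ghr* (T3 in *Thrb*-KO, -0.0139) and *Prlr* (hypothyroid groups, 0.10). In replicates 1 and 2 alone they turned for *Prlr* (0.10 for T3 in *Thrb*-KO, -0.17 between hyperthyroid groups) and *Thrb* (0.0549 for T3 in *Thrb*-KO). The *Prlr* value between hyperthyroid groups, 0.0114, also became -0.0698 with TMM scaling, -0.094 with edgeR, -0.0949 with DESeq2, -0.0305 with transcripts summed and -0.0532 outside *Gh* and *Prl*, where *Jak2* (0.0141) and *Thrb* (0.0111) turned for T3 in *Thrb*-KO. Leaving out a library, the interaction ranged from -0.30 to 0.32 for *Prl*, -0.14 to 0.00464 for *Ghrhr* and -0.0777 to 0.26 for *Prlr*, and *Prlr* between genotypes from -0.20 to 0.0207 (hypothyroid) and -0.17 to 0.17 (hyperthyroid). Counts over all genes rose without the fold threshold from 1244 to 2536 and 133 to 235 for T3 in wild type and *Thrb*-KO, and from 397 to 901 and 639 to 1586 between genotypes, which became 628 and 1114 in replicates 3 to 5. Depth limits *Ghsr* most, at 8 reads in its lowest library.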
